A study of Mus musculus with 40 samples.

Results

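The genes described are those of the mouse mitochondrial chromosome. They were taken as every row whose chromosome entry was MT, which gave 37 of the 41388 genes counted in each library: 13 mRNA genes, 2 rRNA genes and 22 tRNA genes. No measured value entered this choice.

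All libraries came from mice aged 21 d that carried a Cre driver together with a Cre-dependent EGFP-Rpl10a construct (CAG promoter, Rosa26 locus), which tags the ribosomes of the cells that express Cre. In the RBP4 line, Cre was driven by the RBP4-cre transgene, used for layer 5 pyramidal neurons of the cortex. In the VGAT line, Cre was driven from Slc32a1, the gene of the vesicular GABA transporter, used for GABAergic neurons. From each of 5 pools of forebrains per line, each pool made of several mice of both sexes, 4 fractions were sequenced in parallel: whole cell homogenate (WCH), GFP-tagged ribosomes captured from it (TRAP), a synaptoneurosomal fraction (SNF) obtained by gradient centrifugation, and tagged ribosomes captured from that fraction (SynapTRAP, ST). This gave 8 groups of 5 libraries and 40 libraries in all. WCH and SNF hold RNA of every cell type, whereas TRAP and ST are captures of tagged ribosomes and were checked against cell type markers. The labels name the tissue as cortex, whereas the methods describe a forebrain dissection. The 4 fractions with the same replicate number within a line came from 1 pool. No source used here says that a number links pools of the 2 lines, and whether same-numbered pools were processed together is not given.

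The mitochondrial chromosome encodes subunits of the respiratory chain and of ATP synthase, together with the rRNAs and tRNAs that translate them inside the organelle. Mitochondrial ribosomes differ from the cytosolic ribosomes that carry Rpl10a, so mitochondrial mRNAs are not translated by the tagged ribosomes. Both strands of the circle are transcribed as long precursors, which are cut at the tRNAs, and presynaptic terminals and dendrites are rich in mitochondria.

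The libraries held between 14259535 and 22037703 counts, so that 1 count equalled 0.0454 to 0.0701 cpm, the count scaled to the library total. The driver genes were checked as cpm of the counts left after mitochondrial, rRNA and tRNA genes were removed. Slc32a1 lay between 48.4 and 77.2 in VGAT TRAP and between 1.49 and 4.99 in RBP4 TRAP, against 9.46 to 18.1 in RBP4 WCH. Slc17a7, a vesicular glutamate transporter, lay between 433 and 639 in RBP4 TRAP and between 24.6 and 48.8 in 4 VGAT TRAP libraries. The library labelled VGAT TRAP replicate 3 held 155, and the library labelled RBP4 ST replicate 4 held Slc32a1 at 49.9 where the next RBP4 ST library held 19.7. The summed level of 10 layer 5 markers was 1730 to 2468 in RBP4 TRAP and 1842 to 2327 in RBP4 WCH, and 4 of the 10 were called higher in TRAP by the test described below. Of all genes, 9.5% were called higher in that comparison. The 10 astrocyte markers summed to 4004 to 8444 in RBP4 WCH, 686 to 3343 in TRAP, 13465 to 36199.5 in SNF and 5706 to 26434 in ST, and to 3974 to 6728, 439 to 1895, 11847.7 to 35039.6 and 9038 to 24403 in the same VGAT fractions. The 10 oligodendrocyte markers summed to 32901 to 45700.0 in RBP4 ST and 33431 to 55705 in VGAT ST, above the 7199 to 10836 and 7409 to 9502 of the WCH groups. RNA of glial genes was thus present in SNF and ST. The ST libraries did not show the marker pattern of TRAP: the 10 GABAergic markers summed to 11921 to 14838 nuclear cpm in VGAT TRAP and to 1775 to 6098 in VGAT ST (10 of 10 lower), where VGAT SNF held 2147 to 3212 and VGAT ST replicates 1 and 2 lay below all of it. Of all genes, 35.8% were lower in VGAT ST than in VGAT TRAP. The layer 5 markers summed to 5232 to 6059 in VGAT ST against 2558 to 2915 in VGAT SNF. Of these, 4 of 10 were called higher, where 28.2% of all genes were. Between RBP4 and VGAT ST, 0 of 10 were called, where only 0.199% of all genes were, so this count says little about the markers. The 10 endothelial markers summed to 45.3 to 796 in RBP4 ST and 52.1 to 481 in VGAT ST, against 28.1 to 39.8 and 24.3 to 31.1 in TRAP. In bulk samples, fewer cells of a type and less RNA per cell cannot be told apart.

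Not every mitochondrial gene could be counted equally. Of 55603210 mitochondrial counts over the 40 libraries, 33892379 fell on 7 mRNAs and 21620322 on the 2 rRNAs, 88265 on tRNAs, and only 2244 on the other 6 mRNAs. The 7 well counted mRNAs (over 3000 counts, a line drawn after the values were seen) were mt-Nd1, mt-Nd2, mt-Nd4, mt-Nd5 and mt-Nd6 (subunits of complex I, NADH dehydrogenase), mt-Cytb (cytochrome b of complex III) and mt-Co1 (the catalytic subunit of cytochrome c oxidase, complex IV). The rarely counted mRNAs were mt-Nd3 (2185 counts) and mt-Nd4l (0 counts) of complex I, mt-Co2 (11) and mt-Co3 (22) of complex IV, and mt-Atp6 (25) and mt-Atp8 (1) of ATP synthase. The study counted only reads that aligned at a single place in the genome, and the reads were 50 bases long. Each gene's 50-base windows were therefore looked up among the annotated nuclear transcripts. For 5 of the 6 rarely counted mRNAs, 98.0% (mt-Nd3) to 100% (mt-Co2) of the windows were also found in a nuclear pseudogene. Among the well counted mRNAs the share was 0% for mt-Nd1, mt-Nd6 and mt-Cytb, 7.61% for mt-Nd5, 8.19% for mt-Nd2, 51.1% for mt-Co1 and 62.2% for mt-Nd4. The shared copies lay mostly in a block of 7 pseudogenes on the minus strand of chromosome 1 (GRCm38, chr1:24611535-24616197), 4663 bases long, which itself held 1102 counts over the 40 libraries. Over their whole aligned lengths, mt-Co2 and Gm28661 had 0 mismatches in 681 bases, mt-Atp6 and Gm10925 had 0 in 678, mt-Co3 and Gm28437 had 0 in 783, mt-Nd4l and Gm10222 had 0 in 294, and the first 876 bases of mt-Nd4 matched Gm28439 with 0 mismatches. mt-Nd3 differed from Gm28438 at 1 of 345 bases. mt-Co1 differed from Gm13340 on chromosome 2 at 37 of 1545 bases, an identity of 97.6%.

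The starts of mt-Co2, mt-Nd3 and mt-Co1 are shown beside their nuclear copies, because they show how a gene with 11 counts, a gene with 2185 and a gene with 7500348 differ from those copies (5′ to 3′ on the sense strand, GENCODE M21 transcripts on GRCm38, with bases that differ between the members of a pair in capitals). The pairs held 0, 1 and 3 differences in these stretches. From position 1 at the gene's 5′ end, the substitutions were T3C for mt-Nd3 and C54A, A60G and G87A for mt-Co1.
mt-Co2, chrMT:7013-7102, plus strand: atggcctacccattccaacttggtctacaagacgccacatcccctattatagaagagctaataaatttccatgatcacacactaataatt
Gm28661, chr1:24615476-24615565, minus strand: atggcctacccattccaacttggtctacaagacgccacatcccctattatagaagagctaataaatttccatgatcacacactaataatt
mt-Nd3, chrMT:9459-9548, plus strand: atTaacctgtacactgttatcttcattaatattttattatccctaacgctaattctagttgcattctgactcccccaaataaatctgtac
Gm28438, chr1:24613030-24613119, minus strand: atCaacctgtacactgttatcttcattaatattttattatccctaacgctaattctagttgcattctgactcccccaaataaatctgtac
mt-Co1, chrMT:5328-5417, plus strand: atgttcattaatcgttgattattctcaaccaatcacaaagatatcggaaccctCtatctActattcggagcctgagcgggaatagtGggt
Gm13340, chr2:22589558-22589647, minus strand: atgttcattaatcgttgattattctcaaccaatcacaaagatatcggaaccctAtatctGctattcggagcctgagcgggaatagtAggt

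mt-Atp8 shared 0% of its windows with an annotated nuclear transcript and yet had only 1 count. It is 204 bases long and its last 43 bases also belong to mt-Atp6. Its end is shown with that overlap in capitals, since a read across it falls on both genes and was not counted as unambiguous. Reads that lie wholly before the overlap are not affected by it. Why the gene had only 1 count was not tested.
mt-Atp8, bases 142 to 204, chrMT:7907-7969, plus strand: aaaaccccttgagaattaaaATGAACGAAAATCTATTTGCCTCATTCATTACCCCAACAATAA

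No count fell on 7 tRNA genes (mt-Tw, mt-Ty, mt-Ts1, mt-Td, mt-Tk, mt-Tg and mt-Th), and they too shared no window with annotated transcripts. mt-Ts1, mt-Td, mt-Tk and mt-Tg, like mt-Atp8, lie between mt-Co1 and mt-Nd4, the stretch whose mRNA genes are copied in the chromosome 1 block. mt-Tr (arginine) lies in that stretch too and had 153 counts, and mt-Tw, mt-Ty and mt-Th lie outside it. The sequence between the annotated pseudogenes of that block was not searched, and why these genes held no count was not tested. The tRNA genes are 59 to 75 bases long, so few read positions fit within them. The other 15 tRNA genes had between 114 counts (mt-Tf, phenylalanine) and 27946 (mt-Tp, proline). The 3 most counted were mt-Tp, mt-Tc (cysteine, 21153 counts) and mt-Tq (glutamine, 13139), all annotated on the minus strand. Their sequences are shown because they held most of the tRNA counts.
mt-Tp, chrMT:15356-15422, minus strand: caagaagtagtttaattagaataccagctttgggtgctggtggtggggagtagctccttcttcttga
mt-Tc, chrMT:5192-5257, minus strand: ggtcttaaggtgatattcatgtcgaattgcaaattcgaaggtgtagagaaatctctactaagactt
mt-Tq, chrMT:3772-3842, minus strand: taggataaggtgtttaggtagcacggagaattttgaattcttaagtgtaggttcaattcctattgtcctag

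The library kit does not keep strand. The other strand of each minus-strand gene (8 tRNA genes and mt-Nd6) is transcribed too, so reads of these genes and of antisense transcripts cannot be told apart. The same holds for the 14 bases that mt-Nd5 and mt-Nd6 share on opposite strands.

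Per length, the well counted genes spanned a several-fold range of levels in WCH. In RBP4 WCH, mt-Cytb had the highest mean level at 12820 RPKM (cpm per kilobase of gene), followed by mt-Rnr2 (16S rRNA) at 11315, mt-Nd1 at 9790, mt-Co1 at 5711, mt-Nd4 at 3237, mt-Rnr1 (12S rRNA) at 2895, mt-Nd2 at 2766, mt-Nd6 at 2066 and mt-Nd5 at 2035. In VGAT WCH the same genes stood at 9242, 7747, 6634, 4016, 2330, 2018, 2139, 1403 and 1497 RPKM. mt-Cytb, mt-Rnr2 and mt-Nd1 led in both lines, and the neighbours mt-Rnr1 and mt-Nd2, and mt-Nd5 and mt-Nd6, changed places. mt-Nd3 reached only 6.22 and 4.32 RPKM. Taken per kilobase of window starts that no annotated nuclear transcript shares, mt-Co1 rose to 12071 cpm and mt-Nd4 to 8886 cpm in RBP4 WCH, near the 13394 of mt-Cytb, 11799.6 of mt-Rnr2 and 10319 of mt-Nd1, whereas mt-Nd2 (3162), mt-Rnr1 (3052), mt-Nd6 (2281) and mt-Nd5 (2263) stayed lower. The low levels of mt-Co1 and mt-Nd4 per length thus depended on how the length was taken. Both ways take reads as spread evenly along a gene, whereas the paper states a heavy 3′ bias of its reads. Bases 1 to 876 of mt-Nd4, at its 5′ end, matched a pseudogene of the chromosome 1 block with 0 mismatches. mt-Co1 aligned to another of that block at bases 1054 to 1545, at its 3′ end. Neither order of genes is thus an order of abundance.

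**Figure D1:**
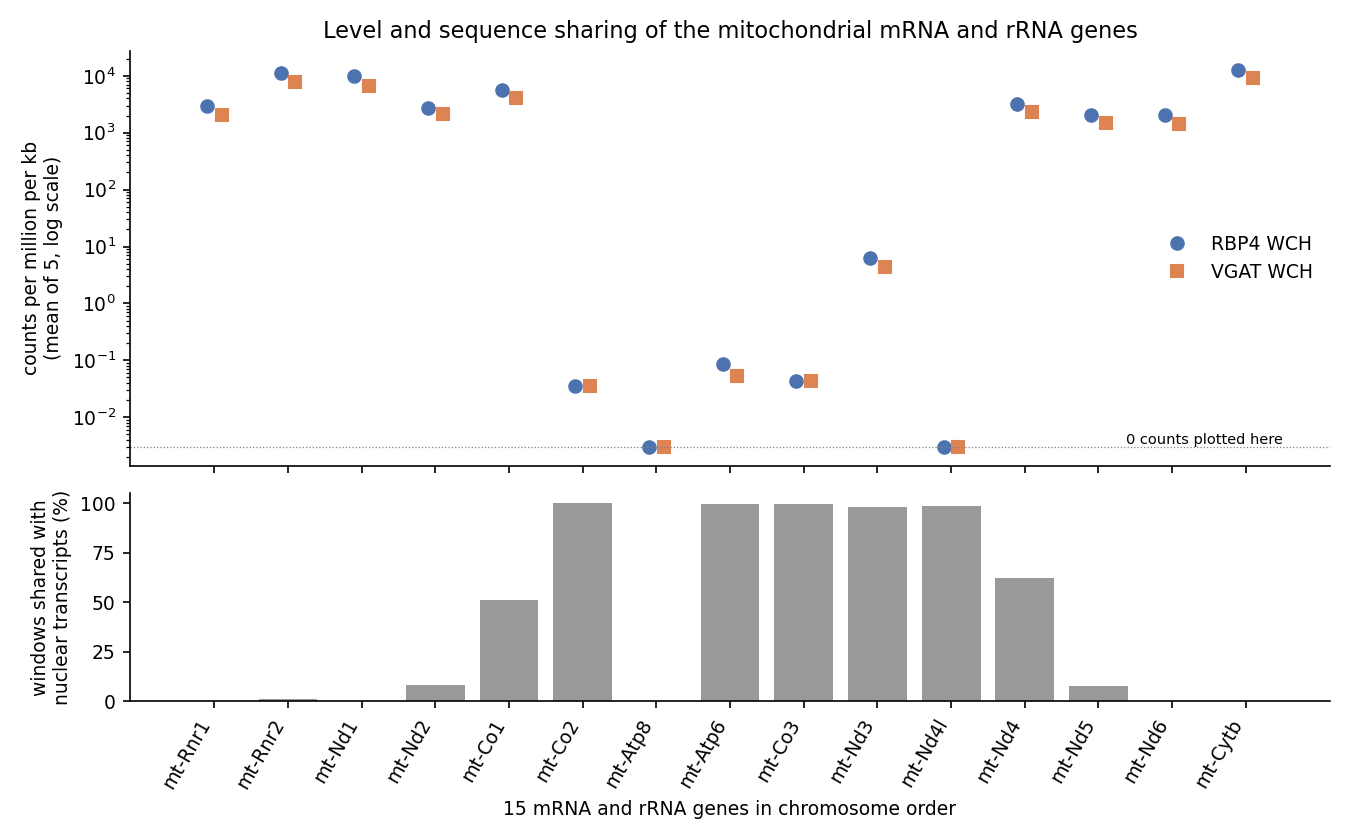
Mean level in WCH of both lines (upper, cpm per kilobase, log axis) and percent of 50-base windows shared with an annotated nuclear transcript (lower) for the 15 mitochondrial mRNA and rRNA genes in chromosome order. Genes with 98.0% to 100% of windows shared stood far below the others, genes without a count are drawn at the dotted line, and mt-Atp8 was rarely counted without sharing.

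The share of a library that fell on mitochondrial genes ranged from 0.0584% to 41.9%, with a median of 5.06%. It differed more between fractions than between lines. The RBP4 libraries (replicates 1 to 5) held 10.0%, 2.01%, 8.24%, 6.49% and 6.12% in WCH, and 0.225%, 0.0584%, 0.511%, 0.269% and 0.347% in TRAP. They held 18.8%, 11.2%, 40.2%, 16.3% and 15.05% in SNF, and 3.62%, 3.42%, 15.8%, 2.71% and 7.08% in ST. All TRAP libraries lay below all WCH libraries and all SNF libraries above them, while ST overlapped both WCH and SNF. The VGAT libraries held 3.83%, 2.63%, 6.67%, 5.21% and 4.79% in WCH, 0.123%, 0.130%, 0.473%, 0.134% and 0.243% in TRAP, 14.3%, 13.3%, 41.9%, 19.4% and 18.1% in SNF, and 2.80%, 3.62%, 18.97%, 5.71% and 4.91% in ST, in the same arrangement. In means, the RBP4 shares were 6.57% ± 2.98 (SD, n = 5 here and below), 0.282% ± 0.166, 20.3% ± 11.4 and 6.53% ± 5.46, and the VGAT shares 4.63% ± 1.51, 0.221% ± 0.1496, 21.4% ± 11.7 and 7.20% ± 6.67. These shares were described and not tested, since they sum over the chosen genes.

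Pools differed strongly. Replicate 3 had the highest mitochondrial share in 7 of 8 groups, the exception being RBP4 WCH, and stood up to 3.32-fold above the next library (VGAT ST). Replicate 2 was lowest in 5 groups. Within a group, the highest library held 2.54 to 8.76 times the lowest. In SNF, replicate 3 was also highest for the summed astrocyte markers in both lines, at 36199.5 nuclear cpm in RBP4 where the next library held 19049.9 and at 35039.6 in VGAT where the next held 17889.6, and their part in its mitochondrial share was not tested. Within pools the direction was the same throughout: TRAP lay 16.1- to 44.5-fold below WCH in RBP4 (median 24.2) and 14.1- to 38.9-fold in VGAT (20.2), SNF lay 1.88- to 5.58-fold above WCH (2.51) and 3.72- to 6.28-fold (3.78), and ST lay 2.13- to 6.01-fold below SNF (3.29) and 2.21- to 5.11-fold (3.66).

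**Figure D2:**
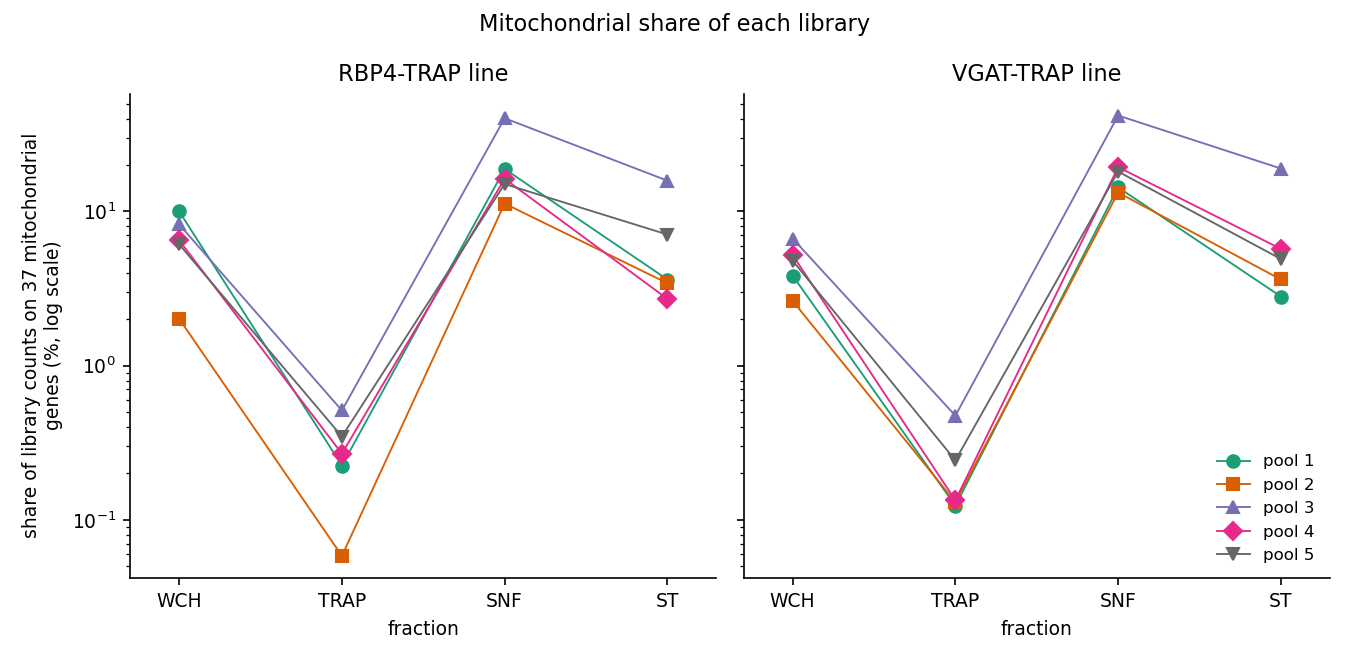
Percent of each library's counts on the 37 mitochondrial genes (log axis) in the 4 fractions of the RBP4 line (left) and the VGAT line (right); each point is a library and each line joins the fractions of 1 pool. All pools fell from WCH to TRAP, rose from WCH to SNF and fell from SNF to ST, and replicate 3 was highest in 7 of 8 groups.

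By class, mRNA genes took 4.50% ± 2.001 of RBP4 WCH counts, 0.195% ± 0.127 of TRAP, 12.4% ± 6.57 of SNF and 3.57% ± 3.49 of ST. rRNA genes took 2.07% ± 0.995, 0.0867% ± 0.0428, 7.86% ± 4.89 and 2.95% ± 1.98. In VGAT the mRNA shares were 3.20% ± 1.13, 0.140% ± 0.103, 13.5% ± 7.09 and 3.38% ± 3.56, and the rRNA shares 1.42% ± 0.405, 0.0801% ± 0.0472, 7.84% ± 4.64 and 3.80% ± 3.11. The ST means rested on replicate 3: without it, the mRNA share was 2.08% in RBP4 and 1.82% in VGAT, and the VGAT rRNA share 2.43%. Counted tRNA genes never exceeded 0.0562% of a library.

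The next comparison asked which RNAs captured ribosomes carried relative to the whole homogenate. In both lines, TRAP held less mitochondrial RNA of every class. mt-Cytb stood at 21882, 4520.2, 18634, 14695 and 13601 cpm in RBP4 WCH (replicates 1 to 5) and at 354, 98.6, 987, 420.2 and 547 cpm in TRAP. In VGAT it stood at 8189.7, 5829, 15465, 12202 and 11178 cpm in WCH and 168, 193, 813, 223 and 374 cpm in TRAP. The groups did not overlap in either line, and even the highest TRAP library lay several-fold below the lowest WCH library. The log2 fold change was -4.93 ± 0.64 (SE; adjusted p = 6.63e-06, edgeR quasi-likelihood test with Benjamini-Hochberg adjustment over all genes, used for all adjusted p-values below) in RBP4 and -4.90 ± 0.61 (adjusted p = 1.05e-06) in VGAT. Complex I genes fell alike, with mt-Nd1 at -4.42 and -4.41, mt-Nd2 at -4.68 and -4.59, mt-Nd4 at -4.52 and -4.50, mt-Nd5 at -4.29 and -4.47, and mt-Nd6 at -4.06 and -4.15 in RBP4 and VGAT. mt-Co1 fell by 4.24 ± 0.58 (adjusted p = 1.13e-05) and by 4.15 ± 0.54 (adjusted p = 1.7e-06) on the log2 scale. For the 7 well counted mRNAs this was 16.7- to 30.5-fold lower in RBP4 and 17.7- to 29.9-fold lower in VGAT.

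The rRNAs fell too. mt-Rnr1 read 4728, 926, 2925, 2944 and 2302 cpm in RBP4 WCH and 131, 36.4, 212, 191 and 179 cpm in TRAP, without overlap, a log2 fold change of -4.20 ± 0.52 (adjusted p = 3.78e-06), and mt-Rnr2 fell by 4.64 ± 0.56 (adjusted p = 2.89e-06). In VGAT the changes were -3.67 ± 0.49 (adjusted p = 2.42e-06) and -4.24 ± 0.49 (adjusted p = 4.27e-07). Among the tRNAs, mt-Tp stood at 72.8, 10.1, 42.0, 40.2 and 42.4 cpm in RBP4 WCH and at 1.55, 0.297, 3.82, 2.54 and 2.90 cpm in TRAP (log2 fold change -4.22 ± 0.54, adjusted p = 5.66e-06), and in VGAT it changed by -3.77 ± 0.48 (adjusted p = 1.43e-06). mt-Tc changed by -3.70 and -3.35, and mt-Tq by -4.63 ± 0.55 (adjusted p = 2.2e-06) and -3.94.

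In counts, all 8 mRNA genes that passed the filter on low counts (the 7 above and mt-Nd3), both rRNA genes and 13 of 13 tRNA genes were lower in RBP4 TRAP, and 8, 2 and 14 of 14 in VGAT TRAP. mt-Nd3 had 180 counts over RBP4 WCH and 2 over TRAP, and 131 and 5 in VGAT, too few for a fold. mt-Tr (arginine), which passed in VGAT through its SNF libraries, had 12 counts over VGAT WCH and 0 over TRAP. Among all genes tested, 26.1% were lower and 9.5% higher in RBP4 TRAP, and 37.2% lower and 21.6% higher in VGAT TRAP. The median log2 fold change over all genes was -0.24 in both lines, far from the median of the 7 mRNAs at -4.42 in RBP4 and -4.47 in VGAT. With trimmed-mean (TMM) scaling, the calls over all genes moved from 1602 higher and 4391 lower to 3622 and 3671 in RBP4, and from 3616 and 6231 to 5181 and 5329 in VGAT, while the mitochondrial mRNA and rRNA calls stayed 8 and 2 in both lines.

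**Figure D3:**
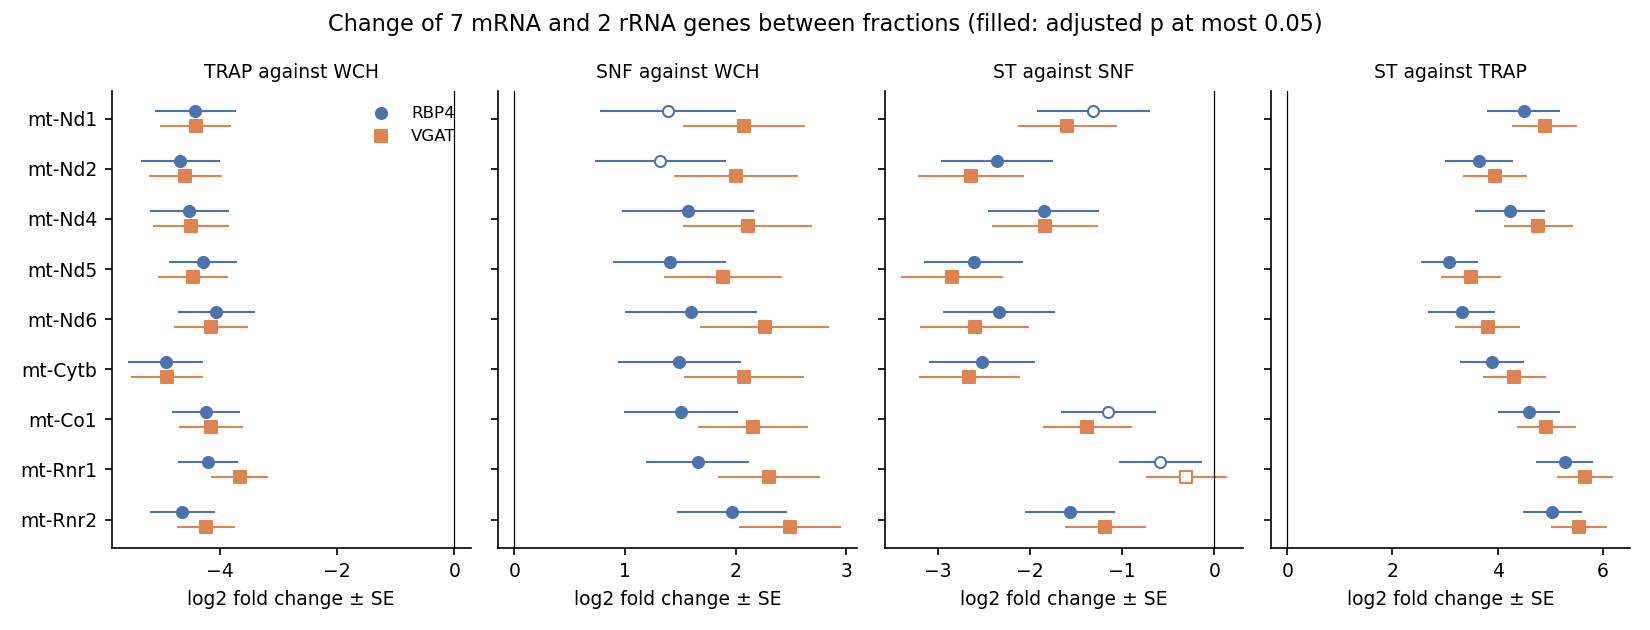
Log2 fold changes with their SE for the 7 well counted mRNAs and the 2 rRNAs in the 4 comparisons of each line (filled symbols: adjusted p of at most 0.05). TRAP lay at -4.93 to -3.67 against WCH, SNF at 1.32 to 2.49 against WCH, ST at -2.85 to -0.30 against SNF, and ST at 3.08 to 5.66 against TRAP.

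SNF libraries, which sample pinched-off processes, held more mitochondrial RNA than WCH. mt-Cytb reached 39838, 23706, 78560.3, 33629 and 30441 cpm in RBP4 SNF and 27249, 28024, 85254, 43795 and 38204 cpm in VGAT SNF. Every SNF library lay above every WCH library of its line. The log2 fold change was 1.49 ± 0.55 (adjusted p = 0.0271) in RBP4 and 2.07 ± 0.54 (adjusted p = 0.00189) in VGAT. mt-Co1 rose by 1.51 ± 0.52 (adjusted p = 0.018) and 2.15 ± 0.50 (adjusted p = 0.000618). Of the complex I mRNAs in RBP4, mt-Nd4 (1.57), mt-Nd5 (1.403), mt-Nd6 (1.59) and mt-Nd3 (1.67 ± 0.52, adjusted p = 0.0096) rose, whereas mt-Nd1 at 1.39 ± 0.61 (adjusted p = 0.0591) and mt-Nd2 at 1.32 ± 0.59 (adjusted p = 0.0611) missed the threshold. With the pool as a block, these were 1.37 (adjusted p = 0.00835) and 1.22 (adjusted p = 0.00837). In VGAT the 5 well counted complex I mRNAs rose by 1.88 (mt-Nd5) to 2.26 (mt-Nd6), without overlap, and mt-Nd3 by 3.14 ± 0.50 (adjusted p = 1.16e-05), from 131 to 1067 summed counts.

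mt-Rnr1 rose to 8723, 5774, 14900.2, 7446 and 6752 cpm in RBP4 SNF, above all RBP4 WCH libraries, by 1.66 ± 0.46 (adjusted p = 0.00494), and mt-Rnr2 rose by 1.96 ± 0.50 (adjusted p = 0.0023). In VGAT they rose by 2.30 ± 0.46 (adjusted p = 0.000162) and 2.49 ± 0.46 (adjusted p = 5.98e-05). mt-Tq stood at 60.9, 42.3, 115, 49.9 and 54.1 cpm in RBP4 SNF against 20.1, 2.68, 19.02, 10.5 and 12.3 in WCH, without overlap, and had the smallest p of the tRNAs in both lines (2.32 ± 0.45, adjusted p = 0.000273 in RBP4, and 2.53 ± 0.42, adjusted p = 1.89e-05 in VGAT). mt-Tp rose by 1.44 and 1.91, and mt-Tc by 1.57 (adjusted p = 0.0439) and 2.12.

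In RBP4, 6 of 8 mRNA, 2 of 2 rRNA and 11 of 13 tRNA genes rose, where 8.55% of all genes were higher and 45.2% lower. In VGAT, 8 of 8, 2 of 2 and 14 of 14 rose, where 14.1% of genes were called higher and 54.5% lower. The groups did not overlap for any of these mitochondrial genes, but the share of all genes without overlap is not given here. Some tRNA genes passed the filter on low counts only through SNF, or SNF and ST, libraries (mt-Ts2 in RBP4, and mt-Tr, mt-Ts2 and mt-Tl2 in VGAT), so their rise was built into the filter and says nothing further. The block raised the RBP4 counts to 8 mRNA and 13 tRNA genes. The RBP4 mRNA count fell to 2 without replicate 4 and to 4 without replicate 1, and the tRNA count to 7 without replicate 3. The median over all genes was -0.73 in RBP4 and -0.80 in VGAT. Under TMM scaling the calls over all genes were 3315 higher and 3069 lower in RBP4 (1441 and 7613 before) and 4189 and 4912 in VGAT (2371 and 9134), with all 8 mRNAs and both rRNAs higher in both lines.

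The capture from SNF lowered the mitochondrial mRNAs by unequal amounts. mt-Cytb dropped to 4183, 3603, 18977, 1854 and 7315 cpm in RBP4 ST and 1869.9, 2244, 19071, 6173 and 5896 cpm in VGAT ST, below every SNF library of the line, with log2 fold changes of -2.52 ± 0.57 (adjusted p = 0.00492) and -2.66 ± 0.55 (adjusted p = 0.000781). mt-Nd5 went from 11085, 5521, 16458, 7936 and 8061 cpm in RBP4 SNF to 1037, 959, 3657, 519 and 1839.95 cpm in ST, also without overlap, by -2.61 ± 0.53 (adjusted p = 0.0019), and in VGAT by -2.85 ± 0.55 (adjusted p = 0.000412). mt-Nd2 (-2.35 and -2.64) and mt-Nd6 (-2.34 and -2.60) were lower to a similar degree, and mt-Nd4 was lower by 1.85 ± 0.60 (adjusted p = 0.044) and 1.84 ± 0.58 (adjusted p = 0.017). mt-Co1 changed least. It read 24088, 14253, 45724, 22547 and 18617 cpm in RBP4 SNF and 5852, 7534, 24992, 3362 and 14728 cpm in ST, which overlapped, at -1.15 ± 0.51 (adjusted p = 0.151), and at -1.38 ± 0.48 (adjusted p = 0.0311) in VGAT. mt-Nd1 was between, at -1.32 ± 0.61 (adjusted p = 0.17) and -1.59 ± 0.54 (adjusted p = 0.0263). With the pool as a block, RBP4 mt-Co1 (-1.24, adjusted p = 0.0295) and mt-Nd1 (-1.60, adjusted p = 0.0127) passed the threshold. mt-Nd3 went from 561 to 84 summed counts in RBP4 and from 1067 to 155 in VGAT, with no overlap.

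mt-Rnr1 did not differ detectably between ST and SNF, at 2677, 3565, 13356, 3531 and 5931 cpm in RBP4 ST and 3601, 4467, 22153, 4840.5 and 3405 cpm in VGAT ST (log2 fold changes -0.59 ± 0.45, adjusted p = 0.437, and -0.30 ± 0.44, adjusted p = 0.645). mt-Rnr2 was lower, by 1.56 ± 0.49 (adjusted p = 0.0373) and 1.18 ± 0.44 (adjusted p = 0.0409). The rRNA calls rested on few libraries: in RBP4 no rRNA was called without replicate 1, 4 or 5, nor with the ST library of replicate 4 alone left out, and in VGAT none was called without replicate 1, 2, 4 or 5, while both were called without replicate 3. Among the tRNAs, mt-Tv (valine) had the smallest p in RBP4 (-3.05 ± 0.47, adjusted p = 8.48e-05) and mt-Tq in VGAT (-1.96 ± 0.41, adjusted p = 0.000795). mt-Tq read 5.54, 4.41, 21.4, 4.397 and 6.58 cpm in RBP4 ST, below every RBP4 SNF library. mt-Tp was lower as well (-2.08, adjusted p = 0.00516, and -1.12, adjusted p = 0.0372). mt-Tc went the other way in its estimates, with 11.8, 21.7, 204, 18.9 and 107 cpm in RBP4 ST against 36.5, 14.2, 102, 22.3 and 29.7 in SNF, and 24.1, 31.5, 262, 44.3 and 37.8 in VGAT ST against 24.7, 25.5, 66.4, 32.9 and 37.7 in SNF. The groups overlapped, and neither 0.83 ± 0.63 (adjusted p = 0.429) nor 1.09 ± 0.49 (adjusted p = 0.0877) passed the threshold.

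In RBP4, 6 of 8 mRNA, 1 of 2 rRNA and 4 of 13 tRNA genes were lower in ST than in SNF, against 1.88% of all genes (10.4% were higher). In VGAT, 8 of 8, 1 of 2 and 5 of 14 were lower, against 5.47% (28.2% higher). The tRNA genes tested include those that passed the filter only through SNF, or SNF and ST, libraries. For genes let in by SNF libraries, a lower level in ST was partly built into the filter. The block gave 8 mRNA and 6 tRNA genes in RBP4 and 7 tRNA genes in VGAT. The RBP4 mRNA count fell to 3 without replicate 1 or 4, and the tRNA count to 2 without replicate 4. In VGAT the mRNA count fell to 5 without replicate 4 or 5, and the tRNA count lay between 3 (without replicate 4 or 5) and 8 (without replicate 3). The median over all genes was 0.17 and 0.32, and TMM scaling turned 1757 higher and 317 lower into 1401 and 746 in RBP4, and 4726 and 917 into 2488 and 2113 in VGAT. It left 5 mRNAs lower in RBP4 and 8 in VGAT.

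ST and TRAP are both ribosome captures, the first from SNF and the second from the homogenate, and this comparison shares its libraries with those above. Mitochondrial RNA was far higher in ST. mt-Co1 stood at 366, 85.8, 819, 442 and 626 cpm in RBP4 TRAP, below all 5 ST libraries given above, a log2 fold change of 4.59 ± 0.59 (adjusted p = 1.41e-06). In VGAT it stood at 213, 227, 739, 206 and 361 cpm in TRAP and at 3609.7, 4225, 27589, 9577 and 8045 cpm in ST, a change of 4.93 ± 0.56 (adjusted p = 8.66e-08). The other well counted mRNAs lay between 3.08 (mt-Nd5) and 4.50 (mt-Nd1) in RBP4 and between 3.50 (mt-Nd5) and 4.89 (mt-Nd1) in VGAT, or 8.46- to 24.1-fold and 11.3- to 30.4-fold with mt-Co1. The rRNAs differed more: mt-Rnr1 by 5.28 ± 0.54 (adjusted p = 1.21e-07) and 5.66 ± 0.54 (adjusted p = 6.86e-09), and mt-Rnr2 by 5.04 ± 0.57 (adjusted p = 3.38e-07) and 5.55 ± 0.53 (adjusted p = 6.31e-09). mt-Ta (alanine) had the smallest p of the tRNAs in both lines, at 5.76 ± 0.71 (adjusted p = 8.48e-07) and 6.11 ± 0.60 (adjusted p = 9.89e-09). mt-Tc was 6.11 and 6.56 higher, mt-Tp 3.57 and 4.55, and mt-Tq 4.02 and 4.51. All 8 mRNA, 2 rRNA and 13 of 13 (RBP4) or 14 of 14 (VGAT) tRNA genes were higher. The tRNA counts include the genes that passed the filter only through SNF, or SNF and ST, libraries. Where ST libraries let a gene in, its higher level in ST was partly built into the filter. Of all genes, 23.3% were higher and 30.9% lower in RBP4, and 33.6% and 35.8% in VGAT. All 10 oligodendrocyte, 10 astrocyte, 10 microglial and 10 endothelial markers were also higher in ST than in TRAP in both lines. The oligodendrocyte markers summed to 439 to 5773 nuclear cpm in RBP4 TRAP and 32901 to 45700.0 in ST, and to 501 to 2816 and 33431 to 55705 in VGAT, and their part in the result was not tested.

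The make-up of the mitochondrial mRNA counts was then compared, as each gene's percent of the 7 well counted mRNAs, which does not depend on the library total. WCH and SNF overlapped for all 7 genes in both lines. mt-Co1 made up 19.2%, 20.9%, 18.97%, 19.6% and 20.8% of RBP4 WCH, 23.9%, 23.0%, 21.2%, 25.5% and 28.2% of TRAP, 19.9%, 20.9%, 19.3%, 21.7% and 20.3% of SNF, and 34.0%, 39.6%, 26.3%, 36.5% and 39.1% of ST. In VGAT it made up 18.4% to 19.9% of WCH, 22.7% to 29.8% of TRAP, 18.7% to 21.3% of SNF and 28.7% to 37.4% of ST. In both lines its share was higher in TRAP than in WCH and higher in ST than in SNF in 5 of 5 pools, and the groups did not overlap. mt-Cytb moved the other way. It made up 33.3%, 33.2%, 31.9%, 33.0% and 32.0% of RBP4 WCH, 23.1%, 26.4%, 25.5%, 24.2% and 24.6% of TRAP, 32.9%, 34.7%, 33.2%, 32.4% and 33.2% of SNF, and 24.3%, 18.9%, 19.9%, 20.1% and 19.4% of ST, with means of 33.0%, 25.0%, 32.7% and 21.1% in the VGAT fractions. The ratio of mt-Cytb's share in TRAP to that in WCH of the same pool was 0.695 to 0.799 in RBP4 and 0.700 to 0.806 in VGAT, and that of ST to SNF 0.545 to 0.740 and 0.602 to 0.726.

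Among the complex I mRNAs, mt-Nd2 and mt-Nd5 lost share from SNF to ST in 5 of 5 pools of both lines without overlap. mt-Nd2 went from a mean of 5.49% to 3.82% in RBP4 and from 6.55% to 4.22% in VGAT, and mt-Nd5 from 8.13% to 5.09% and from 7.59% to 4.66%. From WCH to TRAP neither moved in 1 direction in all pools. mt-Nd1 rose from 19.6% to 24.3% and from 20.2% to 23.9% between SNF and ST, in 5 of 5 pools of each line, without overlap in RBP4 only. mt-Nd4 stayed between 9.29% and 10.7% in all group means, and its groups overlapped. mt-Nd6 took 1.85% of ST in both lines, against 2.40% and 2.55% of SNF, without overlap in VGAT only.

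**Figure D4:**
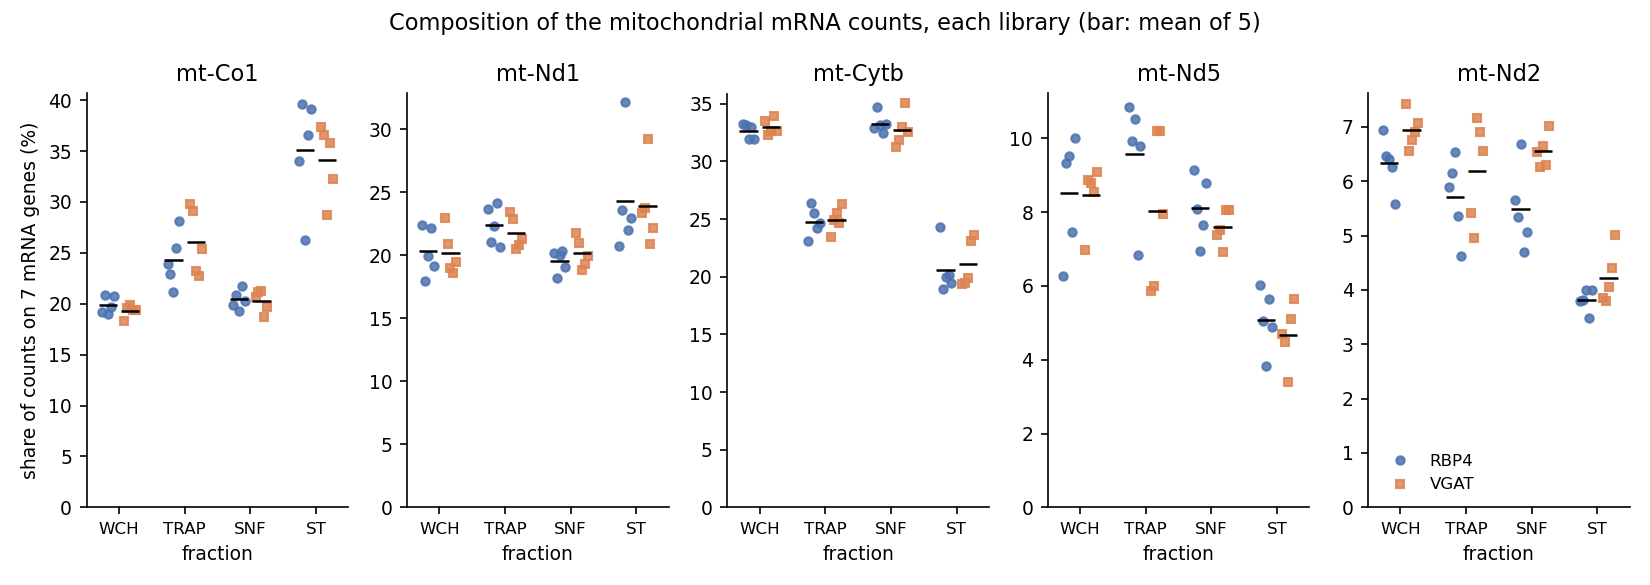
Percent of the summed counts of the 7 well counted mitochondrial mRNAs on mt-Co1, mt-Nd1, mt-Cytb, mt-Nd5 and mt-Nd2, by fraction and line; points are libraries and bars the mean of 5. mt-Co1 rose from a mean of 20.4% in RBP4 SNF to 35.1% in ST and from 20.3% to 34.1% in VGAT, while mt-Cytb, mt-Nd5 and mt-Nd2 fell.

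In counts, the rRNAs gained on the mRNAs in ST. The cDNA was primed with oligo-dT, so a count also depends on how well each RNA was primed, which was not measured. The ratios below are thus not relative abundances of rRNA and mRNA. The ratio of mt-Rnr1 counts to the summed counts of the 7 mRNAs was 0.0720, 0.0846, 0.0629, 0.0718 and 0.0737 in RBP4 SNF and 0.156, 0.187, 0.140, 0.384 and 0.157 in ST. In VGAT it was 0.0799, 0.0706, 0.0669, 0.0750 and 0.0649 in SNF and 0.373, 0.387, 0.231, 0.181 and 0.136 in ST. The groups did not overlap in either line, and the ratio rose 2.14- to 5.34-fold within RBP4 pools and 2.10- to 5.48-fold within VGAT pools. For mt-Rnr2 the ratio rose in 4 of 5 RBP4 pools, with overlapping groups (0.817- to 3.14-fold), and in 5 of 5 VGAT pools without overlap (1.34- to 4.00-fold). From WCH to TRAP, mt-Rnr1 gained in 5 of 5 pools of each line, 1.09- to 1.67-fold in RBP4 with overlap and 1.52- to 2.38-fold in VGAT without. Over both rRNAs, the ratio to mRNA counts was 0.459 ± 0.0411 in RBP4 WCH, 0.489 ± 0.103 in TRAP, 0.620 ± 0.0595 in SNF and 1.07 ± 0.508 in ST, and 0.454 ± 0.0672, 0.610 ± 0.121, 0.570 ± 0.0558 and 1.42 ± 0.552 in VGAT. In ST it was widely spread, and RBP4 ST replicate 4, the library with high Slc32a1, held the highest RBP4 value of 1.94, where the other 4 RBP4 ST libraries lay between 0.658 and 1.10.

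**Figure D5:**
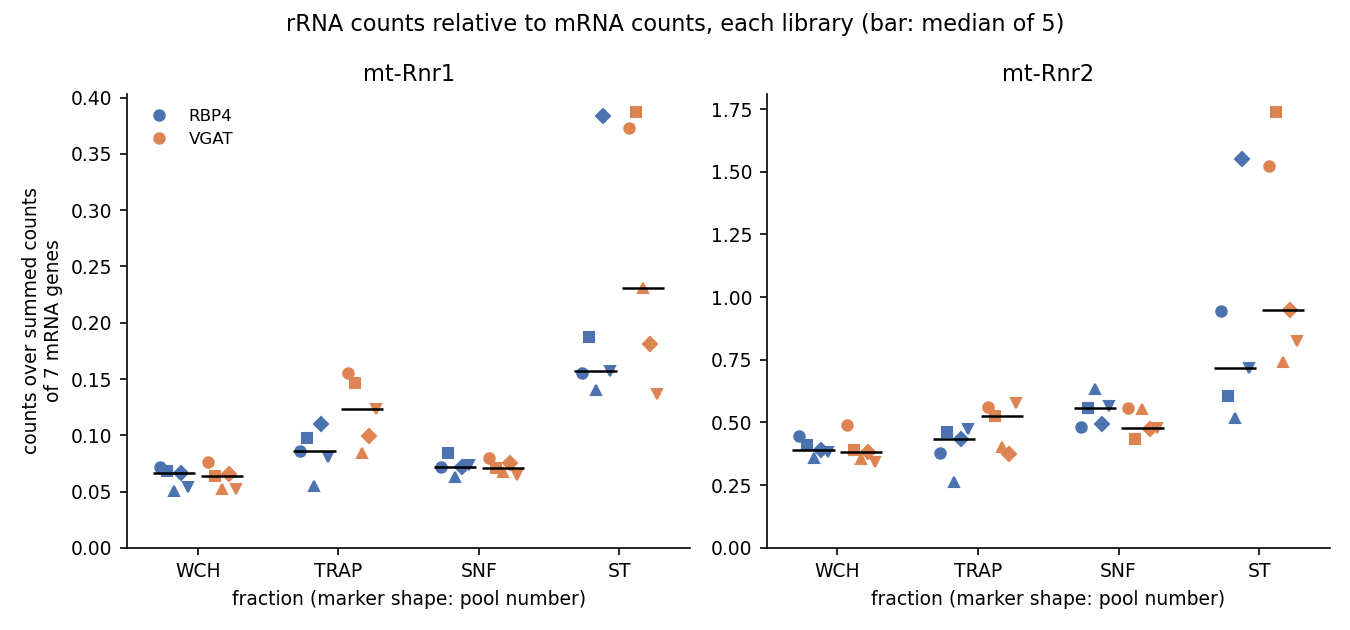
Counts of mt-Rnr1 (12S) and mt-Rnr2 (16S) over the summed counts of the 7 well counted mRNAs in each library; marker shapes give the pool and bars the median of 5. All ST libraries lay above all SNF libraries of their line for mt-Rnr1, with RBP4 ST replicate 4 at 0.384 and the other RBP4 ST libraries at 0.140 to 0.187.

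The 2 lines were compared fraction by fraction. No mitochondrial gene was called different between them in any fraction (0 of 24 tested in each, by the edgeR quasi-likelihood test, the edgeR likelihood ratio test and the DESeq2 Wald test). At an unadjusted p under 0.05, mt-Tr in SNF and mt-Nd3 in ST passed, though mt-Tr entered the comparison only through VGAT SNF and ST libraries, and 0 genes did in WCH and TRAP. The 7 well counted mRNAs lay 0.37 to 0.56 (log2) higher in RBP4 than in VGAT in WCH, -0.31 to -0.04 in SNF, 0.29 to 0.65 in TRAP and -0.08 to 0.20 in ST. mt-Nd3 had the smallest p of the mRNAs in WCH (0.52 ± 0.53, adjusted p = 1), SNF (-0.95 ± 0.50, adjusted p = 1) and ST (-1.16 ± 0.56, adjusted p = 0.519), and mt-Nd5 in TRAP (0.62 ± 0.55, adjusted p = 0.45). Of the rRNAs these were mt-Rnr2 in WCH (0.55 ± 0.48) and TRAP (0.14 ± 0.48), and mt-Rnr1 in SNF (-0.12 ± 0.47) and ST (-0.40 ± 0.47). Among all genes, 0.0114% were called in WCH, 0.0171% in SNF, 25% in TRAP and 0.199% in ST. Where so few genes were called, as in WCH, SNF and ST, 0 of 24 says little about the mitochondrial genes. Without VGAT replicate 3, mt-Nd5 was called higher in RBP4 TRAP (1 mRNA, 1.36, adjusted p = 0.046).

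The change from fraction to fraction was also set against the other line. None of the 24 genes tested was called as changing differently between the lines (0 called by the same tests, which did not pair the fractions of a pool). At an unadjusted p under 0.05 only mt-Tv did, from SNF to ST (-1.31). For the well counted mRNAs, the RBP4 change less the VGAT change was -0.09 to 0.17 from WCH to TRAP, -0.68 to -0.48 from WCH to SNF, -0.02 to 0.29 from SNF to ST and -0.53 to -0.31 from TRAP to ST. Genes called over the whole genome made up 10.9% for WCH to TRAP and 9.13% for TRAP to ST, and 0% for both WCH to SNF and SNF to ST, where 82 and 397 of 17550 genes had an unadjusted p under 0.05 and the DESeq2 Wald test called 0. For WCH to SNF and SNF to ST, 0 of 24 is thus no result about the mitochondrial genes.

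Most respiratory subunits are encoded in the nucleus and translated on cytosolic ribosomes, so their lists were read beside the mitochondrial genes. In TRAP against WCH they went the opposite way. Of 36 complex I genes, 33 were higher in RBP4 and 36 in VGAT, with 0 lower, among them Ndufb7 (1.30 and 1.68) and Ndufa6 (1.395 in RBP4), both accessory subunits. Of 9 complex III genes, 6 and 9 were higher, led by Uqcrq (1.26 and 1.52) and Uqcr11 (1.39 and 1.75), small subunits of cytochrome bc1. Of 10 complex IV genes, 9 and 10 were higher, such as Cox5b (1.27 in RBP4) and Cox5a (1.63 in VGAT). Of 16 ATP synthase genes, 13 and 15 were higher, such as Atp5d (1.37 in RBP4) and Atp5g3 (1.19 and 1.91), a source of the membrane c ring. None of these lists had a gene called lower. The medians were 0.95, 0.91, 0.93 and 0.84 in RBP4 and 1.42, 1.45, 1.46 and 1.29 in VGAT, where the mitochondrial mRNAs stood near -4.42 and -4.47. Of 35 genes of mitochondrial DNA maintenance, transcription and RNA processing, 1 was higher (Fastk, 0.85) and 1 lower (Mgme1, an exonuclease of mitochondrial DNA, -0.68) in RBP4, and 11 were higher, led by Slirp (1.31) and Fastk (0.85), and 3 lower in VGAT. Under TMM scaling these became 12 and 0 in RBP4 and 18 and 1 in VGAT.

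In SNF against WCH, where 45.2% (RBP4) and 54.5% (VGAT) of all genes were lower and the all-gene medians were -0.73 and -0.80, the list medians for complexes I, III, IV and V were -0.34, -0.39, 0.23 and -0.52 in RBP4 and -0.48, -0.53, 0.03 and -0.62 in VGAT, less low than genes in general, and the calls depended on scaling. Complex I had 1 gene higher and 9 lower in RBP4 and 3 and 23 in VGAT, such as Ndufab1 (-1.17 and -1.09) and Ndufs3 (-0.80 and -0.97), and 9 and 0, and 9 and 2, under TMM scaling. Complex III had 0 higher and 2 lower, and 0 and 5 (2 and 0, and 1 and 1, under TMM scaling), and ATP synthase 0 and 7, and 0 and 13 (0 called under TMM scaling in either line), led by Atp5f1 (-0.75 and -0.88) and Atp5a1 (-0.77 and -0.96). Complex IV had 2 and 0, and 3 and 2 (6 and 0, and 8 and 0, under TMM scaling), with Cox6a1 (1.19 and 0.86) and Cox8a (0.93 and 0.61) higher in both lines. The expression machinery, with medians of -1.05 and -1.09, had 0 higher and 29 lower in RBP4 and 0 and 30 in VGAT. Under TMM scaling it had 2 higher and 14 lower in RBP4 and 3 and 22 in VGAT. Lower without TMM scaling were, among others, Fastkd3 (-1.22) and Mtpap (-1.18), the mitochondrial poly(A) polymerase, in RBP4. In VGAT these included Tfam (-1.31), which packages mitochondrial DNA, and Mterf3 (-1.50).

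From SNF to ST, where 10.4% of all genes were higher in RBP4 and 28.2% in VGAT, 2 of 36, 2 of 9, 0 of 10 and 3 of 16 genes of complexes I, III, IV and V and 3 of 35 machinery genes were higher in RBP4, and 20, 4, 3, 9 and 9 in VGAT, with 0 lower. Shares near that background, as for RBP4 complex I and the machinery in both lines, are no result about these lists. Under TMM scaling the counts of higher genes were 0, 0, 0, 0 and 2 in RBP4 and 3, 2, 0, 2 and 6 in VGAT. In VGAT, 2 machinery genes were then lower. Fastk (1.13 and 1.22) was among the machinery genes called higher in both lines without TMM scaling. Against TRAP, ST was lower for 30, 7, 6, 16 and 22 genes in RBP4 and 35, 9, 8, 15 and 25 in VGAT (27, 6, 4, 12 and 20, and 33, 9, 7, 15 and 24, under TMM scaling), such as Ndufb2 (-1.77 and -2.16) and Atp5g3 (-1.57 and -2.32), with 2 machinery genes higher in VGAT, Hsd17b10 (0.60), a subunit of mitochondrial RNase P, and Polg (0.43). The mitochondrial genes and the called nuclear genes of complexes I, III and IV thus had opposite signs in TRAP against WCH and in ST against TRAP under both scalings.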

How the data were processed

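The authors extracted RNA from each fraction, primed cDNA with oligo-dT from 30 ng RNA using a kit that does not keep strand, and sequenced 50-base single reads. Reads were aligned with STAR 2.0.4b, and the deposited counts are uniquely aligned, unambiguous reads per Ensembl gene from featureCounts 1.4.5. The deposited files also hold CPM, which the authors computed as counts over the file total, and RPKM, which they computed by further dividing by gene length; both columns were recomputed from the counts to within 4.07e-10 and 2.76e-10. The study's own analysis set mitochondrial, rRNA and tRNA reads aside, whereas here they were kept in the total. The members and gene lists were chosen with earlier results of these data known.

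Shares were counts over the file total. Genes with at least 0.5 CPM in 3 libraries were fitted with edgeR 4.0.16 (R 4.3.3) by the quasi-likelihood test, with the file total as library size and no further scaling factor, on the 20 libraries of a line, or on all 40 for comparisons between lines; p-values were adjusted over all genes (Benjamini-Hochberg) and called at 0.05. A fold change is log2, the first named fraction over the second, and its SE was derived from the test statistic. Alternatives were TMM and DESeq2 size factors, a library size without 390 mitochondrial, rRNA and tRNA genes, other filters, the likelihood ratio test, DESeq2 1.42.0, the pool as a block, and leaving out each replicate. The omission of replicate 3 of both lines together was chosen after seeing the data. The steps were tested on simulated data.

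The fractions of a pool share its number by design. The mean correlation of deviations between fractions with the same number was 0.0227 to 0.41 within a line, and -0.101 to -0.00695 between different numbers. Each comparison names all mRNA and rRNA genes; the 3 most counted tRNAs and the tRNA with the smallest p; in comparisons between lines, the mRNA and the rRNA with the smallest p; and in the nuclear lists, the genes with the smallest p in each direction, of which only examples are given and 1 is not reported here. Composition used counts, with counts per kilobase as an alternative. Library totals and floors cover counting error only, and nothing says more of the pools than that they are separate samples, so p-values measure the spread between pools. No library pair agreed within sampling noise (lowest chi-square per degree of freedom 11.9 over 80 pairs). Microglial, endothelial, GABAergic and striatal markers were also summed (ST values are given with the results): in RBP4 WCH the sums were 139 to 273, 46.8 to 81.0, 1497 to 1834 and 618 to 1067 nuclear CPM, and in RBP4 TRAP 16.7 to 50.4, 28.1 to 39.8, 392 to 971 and 168 to 422. In VGAT ST the microglial and striatal sums were 335 to 634 and 952 to 3194, and in RBP4 ST 94.3 to 400.003 and 325 to 948. Sharing was searched only among annotated GENCODE M21 transcripts.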

Additional observations from a re-analysis of the deposited data

Results flagged for a closer look

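Of 104 series of 5 libraries examined (class shares, mRNA make-up and rRNA ratios by group), 14 held a library far from the other 4 by Dixon's criterion (gap over range above 0.71), where chance gives about 1 in 20. The class shares that stood apart were all those of replicate 3.

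In RBP4 SNF, replicate 3 held rRNA genes at 16.5% of counts (next 6.70%) and tRNA genes at 0.0516% (next 0.0275%). In VGAT, replicate 3 held mRNA genes at 0.318% of TRAP (next 0.142%), 25.8% of SNF (next 12.5%) and 9.60% of ST (next 2.68%). Its rRNA genes took 16.0% of SNF (next 6.86%) and 9.31% of ST (next 3.02%), and its tRNA genes 0.0562% of ST (next 0.0107%). VGAT TRAP replicate 3 was also the library with the high Slc17a7 level. Whether these go together was not tested.

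Within the mRNA counts, replicate 3 also had mt-Nd1 at 32.1% of RBP4 ST (next 23.6%) and mt-Nd4 at 13.1% of VGAT ST (next 9.93%). The other libraries that stood apart were RBP4 ST replicate 1 for mt-Cytb (24.3%, next 20.1%), RBP4 ST replicate 4 for the ratio of mt-Rnr1 to mRNA (0.384, next 0.187), RBP4 TRAP replicate 4 for a low mt-Nd5 (6.85%, next 9.78%) and VGAT WCH replicate 1 for a low mt-Nd5 (6.98%, next 8.54%).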

How the results depend on the processing

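The calls of mRNA and rRNA genes in TRAP against WCH and in ST against TRAP, and in VGAT SNF against WCH, were the same number under every alternative run; those of RBP4 SNF against WCH and of ST against SNF varied. Leaving out a replicate gave 2 to 6 mRNA and 7 to 9 tRNA genes higher in RBP4 SNF than in WCH. For ST against SNF it gave 3 to 7 mRNA, 0 to 1 rRNA and 2 to 6 tRNA genes lower in RBP4, and 5 to 8, 0 to 2 and 3 to 8 in VGAT. For RBP4 against VGAT in TRAP it gave 0 to 1 mRNA genes. Without RBP4 ST replicate 4 alone, 0 rRNA genes were lower in RBP4 ST than in SNF. In VGAT, 0 rRNA genes were lower by the DESeq2 Wald test and with all 40 libraries in one model, and 8 tRNA genes were lower with DESeq2 size factors; the cause was not tested. With the pool as a replicate block, 8 mRNA genes were called in both RBP4 comparisons with SNF (6 without the block). Apart from the genes and counts given above, the block changed no mRNA or rRNA call in the comparisons within a line. The results given for comparisons between lines were fitted without a block, since no source links the pool numbers of the 2 lines. They therefore do not pair the fractions of a pool.

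Per kilobase, the ratio of rRNA to mRNA counts was 1.30, 1.42, 1.74 and 3.23 in RBP4 WCH, TRAP, SNF and ST, and 1.28, 1.81, 1.60 and 4.24 in VGAT. With oligo-dT priming, this too is not a ratio of abundance. Signs turned for Uqcrc2 in RBP4 SNF against WCH (-0.60 to 0.0775 and 0.0774 with DESeq2 size factors and the DESeq2 Wald test), and in VGAT for Uqcrc2 (0.0390 with TMM, 0.14 with DESeq2 size factors and Wald test) and Cox7b (0.12, 0.22 and 0.22). Between the lines, where nothing was called, leaving out a replicate moved mt-Nd3 in WCH between -0.27 and 0.95, mt-Rnr1 in SNF between -0.40 and 0.21 and in ST between -0.97 and 0.51, mt-Rnr2 in TRAP between -0.0378 and 0.54, and mt-Nd4 from TRAP to ST between -1.21 and 0.15. Depth was no limit for the well counted genes, whereas mt-Nd3 in TRAP and several tRNAs rested on few counts, below or near the floor of 3 counts (0.136 to 0.210 cpm).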
